A study of Mus musculus with 9 samples.

Results

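The genes described here encode the laminin chains Lama3, Lama4, Lama5, Lamb1, Lamb2, Lamb3 and Lamc1, the linker protein nidogen 1 (Nid1) and the proteoglycan perlecan (Hspg2). They are 9 of the 55403 genes and transgenes in the deposited count table, were picked by name as basement membrane genes, and all 9 were among the 14665 genes that passed the filter on low counts. Total RNA was sequenced from mammary tumors of female C57BL/6 mice with a MUC1 transgene and polyoma middle T (PyMT) under the MMTV promoter, which is active in mammary epithelium. KO tumors (5 libraries, 120 to 125 days) were Hspa1a/Hspa1b-/- and so lacked Hspa1a and Hspa1b, the neighbouring genes for the inducible chaperone HSP72, and WT tumors (4 libraries, 122 to 132 days) were Hspa1a/Hspa1b+/+. Both groups carried both transgenes. Tumors had been broken up with collagenase and trypsin and passed through a strainer before lysis, so the RNA came from the cells that were recovered. Ages differed within each group, though WT 3 and WT 4 were both 124 days and KO 3 and KO 5 both 120 days. Libraries of unlike age point to separate animals, but the labels do not say whether each library came from its own. The p-values thus cover only the spread between these libraries, part of which may be technical.

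A basement membrane is a thin sheet of matrix beneath epithelium and endothelium and around muscle, fat and nerve cells. Its laminins are trimers of an alpha, a beta and a gamma chain that assemble on the cell surface, nidogen joins the laminin network to that of type IV collagen, and perlecan adds heparan sulfate chains that hold growth factors. In the mammary gland the basement membrane lies against the basal, myoepithelial layer, and contact with laminin is known to favor milk protein expression in luminal cells. Breaching it separates invasive from in situ tumors.

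The depth and the labels were checked first. The libraries held 4410399 to 6221181 fragments counted on genes, which allow 0.482 to 0.680 CPM (counts scaled to a common library size) where a count is 0, on a limit of 3 counts that reflects counting error alone. Hspa1b stood at 0.203 ± 0.269 CPM in KO and 55.0 ± 22.3 CPM in WT (SD), and Hspa1a at 0.789 ± 0.578 CPM in KO and 7.36 ± 2.66 CPM in WT, and for both the KO libraries all lay below the WT libraries. The epithelial markers Epcam, at 628 to 984 CPM in KO and 775 to 1471 CPM in WT, and Krt8, at 443 to 747 CPM in KO and 518 to 1375 CPM in WT, were abundant in every library, as the tissue label requires. Unmapped fragments were fewest in KO 3 and WT 1, at 10.99% and 12.2%, against 15.2% to 27.1% in the other libraries. Whether that share bears on the levels below was not tested.

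None of the 9 genes passed the test between KO and WT at an adjusted p under 0.05 (edgeR quasi-likelihood test, Benjamini-Hochberg over all 14665 genes). At an unadjusted p under 0.05, 1 of them stood lower in KO, where 4.59% of all genes tested did, and none stood higher, where 3.36% did (7.95% in either direction). DESeq2 and limma-voom also called none of the 9. Of all genes tested, edgeR called 0.0341% lower and 0.0546% higher, or 0.0886% in either direction. The 9 log2 fold changes (KO over WT) ran from -0.87 to 0.18 with a median of -0.15, against a median of -7.8e-05 over all genes tested. They were negative for 8 of the 9 genes, against 50% of all genes tested. The gene that stood apart was Lamb3, followed by Nid1, Hspg2 and Lamc1, while the fold changes of Lama3, Lama4, Lama5, Lamb1 and Lamb2 were all smaller in size than their SE.

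**Figure D1:**
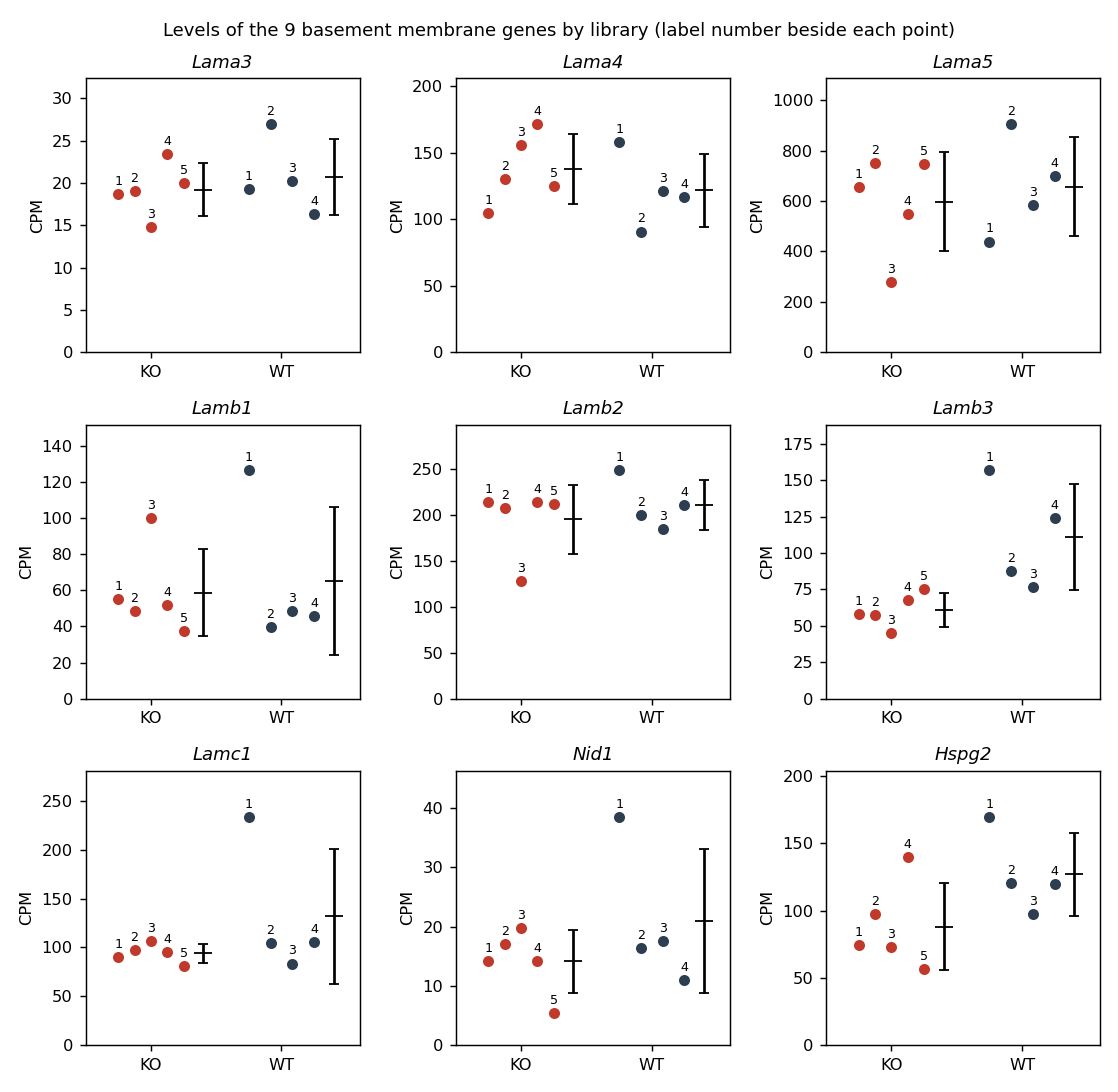
CPM of each of the 9 genes (y axis, starting at 0) in the 5 KO and 4 WT libraries, with the label number beside each point and the mean and SD in black beside each group. The groups are apart only for Lamb3, where the highest KO library, at 75.2 CPM, lies just under the lowest WT library, at 76.4 CPM.

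Lamb3 (ENSMUSG00000026639.18, chromosome 1, 193207699 to 193343878, GRCm38) encodes the beta chain found only in the laminin that anchors epithelial cells through hemidesmosomes, where it pairs with the product of Lama3. It stood at 57.9, 57.5, 45.0, 68.1 and 75.2 CPM in KO 1 to KO 5, against 157, 87.8, 76.4 and 124 CPM in WT 1 to WT 4. Every KO library lay below every WT library, an order seen for 1.26% of all genes tested, while 1.44% had the opposite order, which none of the 9 genes showed. The means were 60.7 ± 11.5 CPM in KO (SD, n = 5) and 111 ± 36.5 CPM in WT (SD, n = 4). The log2 fold change was -0.87 ± 0.22 (SE; 95% interval -1.35 to -0.39), with an unadjusted p of 0.00198 and an adjusted p of 0.415 in edgeR. By unadjusted p Lamb3 was gene number 70 of those tested, and it was not called by any alternative, the smallest adjusted p being 0.0554 with DESeq2 and the largest 0.931 without WT 1 and WT 4.

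The difference in Lamb3 was largest against WT 1 and WT 4. Of the 7 milk protein genes tested, 6 were higher in both WT 1 and WT 4 than in any other library. The exception was Csn3, the most abundant, at 3983 CPM in WT 4, below KO 3 (7672 CPM) and WT 3 (4635 CPM). The whey protein gene Wap ranged from 1.63 to 6.24 CPM over the KO libraries. WT 1 had 84.9 CPM of Wap and WT 4 had 71.4 CPM, while WT 2 had 1.88 CPM and WT 3 had 6.48 CPM. For the milk protein gene Lalba, WT 2 (413 CPM) and WT 3 (484 CPM) also lay above every KO library (166 to 355 CPM). Every KO library was thus below every WT library for Lalba, an order seen for 1.26% of all genes tested. The 7 genes had a median log2 fold change of -3.32, and of 0.11 without WT 1 and WT 4. Of them 6 had an unadjusted p under 0.05 in edgeR and stood lower in KO, where 4.59% of all genes tested did. None was called by edgeR, while DESeq2, which called 0.259% of all genes lower, called 4. Without WT 1 the log2 fold change of Lamb3 was -0.66, without WT 4 it was -0.82, and without both it was -0.44 with an unadjusted p of 0.0408. The part of milk protein state in the Lamb3 difference was not tested beyond these values.

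Sequence around RefSeq starts of the beta chain genes is given because Lamb3, alone of the 9 genes, had groups that did not overlap. Lamb1 and Lamb2 are its sister chains. The fold changes of the 3 genes were not tested against each other. RefSeq promoter windows (250 bases before to 50 after a start, build GRCm38.p6) were read for 6 of the 9 genes, not for Lama3, Lama4 or Lamc1. Both Lamb3 windows lie inside the gene as annotated, which begins at 193207699, so sequence upstream of that position was not searched. The first and second Lamb3 starts below are those of these windows. Which start was used in these tumors cannot be read from gene counts. Capitals mark motifs found on either strand. The motif searched for AP-1 was TGANTCA. The GC box, bound by Sp factors, was read as GGGCGG. The CCAAT box was searched by the letters in its name. For STAT5, a mediator of prolactin signals, the letters were TTCNNNGAA. A heat shock element was read as GAANNTTC. The TATA box was taken as TATAAA.
Lamb3, first start, chr1:193301744-193302043, plus strand: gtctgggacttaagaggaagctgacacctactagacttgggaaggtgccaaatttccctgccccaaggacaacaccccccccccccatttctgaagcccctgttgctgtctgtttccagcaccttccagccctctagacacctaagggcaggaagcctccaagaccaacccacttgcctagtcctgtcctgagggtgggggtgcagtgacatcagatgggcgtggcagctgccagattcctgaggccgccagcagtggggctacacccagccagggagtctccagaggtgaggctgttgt
Lamb3, second start, chr1:193301993-193302292, plus strand: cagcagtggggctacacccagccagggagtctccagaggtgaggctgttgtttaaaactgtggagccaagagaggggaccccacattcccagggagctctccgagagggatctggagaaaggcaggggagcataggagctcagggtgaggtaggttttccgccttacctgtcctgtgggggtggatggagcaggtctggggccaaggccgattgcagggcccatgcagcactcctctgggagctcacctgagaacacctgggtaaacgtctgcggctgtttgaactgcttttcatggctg
Lamb1, chr12:31265043-31265342, plus strand: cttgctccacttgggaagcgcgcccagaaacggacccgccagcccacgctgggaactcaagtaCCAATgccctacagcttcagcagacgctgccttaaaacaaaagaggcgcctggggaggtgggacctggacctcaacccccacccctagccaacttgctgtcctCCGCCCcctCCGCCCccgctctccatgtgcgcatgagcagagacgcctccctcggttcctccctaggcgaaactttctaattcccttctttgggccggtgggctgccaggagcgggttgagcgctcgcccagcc
Lamb2, chr9:108479612-108479911, plus strand: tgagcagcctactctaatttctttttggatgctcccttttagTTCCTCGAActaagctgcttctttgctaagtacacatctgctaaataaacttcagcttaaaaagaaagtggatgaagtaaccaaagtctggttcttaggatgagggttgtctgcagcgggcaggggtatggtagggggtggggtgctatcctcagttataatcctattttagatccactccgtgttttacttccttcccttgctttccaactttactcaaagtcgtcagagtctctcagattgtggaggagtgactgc

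The windows of the beta chain genes were unlike. The Lamb3 starts read here lie 249 bases apart, and their windows share 51 bases. Neither Lamb3 window holds any of the 6 motifs, and they hold 2 and 5 CG dinucleotides. The Lamb1 window holds 18 CG dinucleotides, 2 GC boxes and 1 CCAAT box. The Lamb2 window holds 4 CG dinucleotides and 1 STAT5 motif and is less GC-rich, at 44.0% against 59.3% in both Lamb3 windows and 63.7% in that of Lamb1. Over all 32851 windows of this length the median was 7 CG dinucleotides, 7.81% held the AP-1 motif, 35.7% a GC box, 37.4% a CCAAT box, 8.30% the STAT5 motif, 7.86% the heat shock element and 13.6% the TATA box. The windows of Lama5, Hspg2 and Nid1 held 4, 5 and 1 GC boxes and 24, 27 and 20 CG dinucleotides. A match describes these letters alone, and a window without one says nothing about a factor.

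Lamb2 and Lamb1 encode the beta chains of the laminins in vessel walls, epithelial sheets and other tissues, Lamb1 being the form prominent in the embryo. Lamb2 (ENSMUSG00000052911.9, chromosome 9, 108479736 to 108490530) stood at 214, 208, 128, 214 and 212 CPM in KO 1 to KO 5, against 249, 200.2, 185 and 211 CPM in WT 1 to WT 4. The groups overlapped, and KO 3 alone lay well below the rest. Its log2 fold change was -0.11 ± 0.17 (SE; 95% interval -0.48 to 0.25; edgeR adjusted p = 0.881). Lamb1 (ENSMUSG00000002900.17, chromosome 12, 31265234 to 31329644) stood at 55.2, 48.7, 100.3, 52.0 and 37.3 CPM in KO 1 to KO 5, against 127, 39.5, 48.7 and 45.7 CPM in WT 1 to WT 4. WT 1 and KO 3 were high, and the other 7 libraries lay between 37.3 and 55.2 CPM. The log2 fold change of Lamb1 was -0.15 ± 0.37 (SE; 95% interval -0.96 to 0.67; edgeR adjusted p = 0.940), and its sign turned without WT 1 (0.40).

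Lamc1 (ENSMUSG00000026478.14, chromosome 1, 153218922 to 153332786) encodes the gamma chain shared by most laminins and the one that binds nidogen. It stood at 90.02, 97.1, 106, 94.96 and 80.4 CPM in KO 1 to KO 5, against 234, 104, 83.4 and 106 CPM in WT 1 to WT 4. WT 1 held more than any other library, and the other 3 WT libraries lay within or next to the KO range. The log2 fold change was -0.49 ± 0.26 (SE; 95% interval -1.06 to 0.08; edgeR adjusted p = 0.656), and -0.06 without WT 1. Among KO libraries Lamc1 varied by 1.32 times between the highest and the lowest, the least of the 9 genes.

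Nid1 (ENSMUSG00000005397.8, chromosome 13, 13437551 to 13512269) encodes the nidogen that links laminin to type IV collagen. It stood at 14.2, 17.1, 19.7, 14.3 and 5.47 CPM in KO 1 to KO 5, against 38.6, 16.3, 17.6 and 10.97 CPM in WT 1 to WT 4. The groups overlapped, with WT 1 high and KO 5 low. The log2 fold change was -0.55 ± 0.39 (SE; 95% interval -1.41 to 0.30; edgeR adjusted p = 0.719), and -0.08 without WT 1. Nid1 rested on 408 counts in KO and 399 in WT, the fewest in WT among the 9 genes. Of its exon bases, 143 (2.06%) are shared with the antisense gene Gm48682, and no source used here states whether counting used strand.

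Hspg2 (ENSMUSG00000028763.18, chromosome 4, 137468769 to 137570630) encodes perlecan, whose heparan sulfate chains bind growth factors. It stood at 74.1, 97.6, 72.9, 139.9 and 56.3 CPM in KO 1 to KO 5, against 170.0, 121, 97.2 and 120.0 CPM in WT 1 to WT 4. In KO 1, KO 3 and KO 5 Hspg2 lay below every WT library, KO 2 lay level with WT 3, and KO 4 lay above all WT libraries but WT 1. The means were 88.1 ± 32.5 CPM in KO (SD, n = 5) and 127 ± 30.7 CPM in WT (SD, n = 4). The log2 fold change was -0.53 ± 0.25 (SE; 95% interval -1.08 to 0.03; unadjusted p = 0.0597 and adjusted p = 0.639 in edgeR). It was -0.76 without KO 4 and -0.35 without WT 1.

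The alpha chains, which carry the main binding sites for cell receptors, showed no difference beyond the spread between libraries. Lama5 (ENSMUSG00000015647.9, chromosome 2, 180176373 to 180225859), the alpha chain of most adult epithelial and many vascular basement membranes, stood at 656, 752, 279.8, 550.2 and 748 CPM in KO 1 to KO 5, against 439.6, 905, 585 and 698 CPM in WT 1 to WT 4. KO 3 and WT 1 were the lowest libraries of their groups. Its log2 fold change was -0.14 ± 0.29 (SE; 95% interval -0.76 to 0.49; edgeR adjusted p = 0.921). Its sign turned without KO 3 (0.04) or WT 2 (0.06).

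Lama4 (ENSMUSG00000019846.11, chromosome 10, 38965515 to 39110188), the alpha chain of endothelial, muscle and fat cell basement membranes, stood at 105, 131, 156, 172 and 125 CPM in KO 1 to KO 5, against 158, 90.9, 121 and 117 CPM in WT 1 to WT 4. It was the only gene of the 9 with a positive log2 fold change, 0.18 ± 0.18 (SE; 95% interval -0.23 to 0.58; edgeR adjusted p = 0.824). Lama3 (ENSMUSG00000024421.16, chromosome 18, 12333819 to 12583013), the alpha chain that pairs with Lamb3, ranged from 14.8 to 23.5 CPM in KO, with a median of 19.1 CPM in KO 2, and stood at 19.3, 27.0, 20.3 and 16.3 CPM in WT 1 to WT 4. Its log2 fold change was -0.11 ± 0.18 (SE; 95% interval -0.51 to 0.28; edgeR adjusted p = 0.890). The sign turned without WT 2 (0.04). The antisense gene Gm29200 shares 197 (1.83%) of the exon bases of Lama3.

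**Figure D2:**
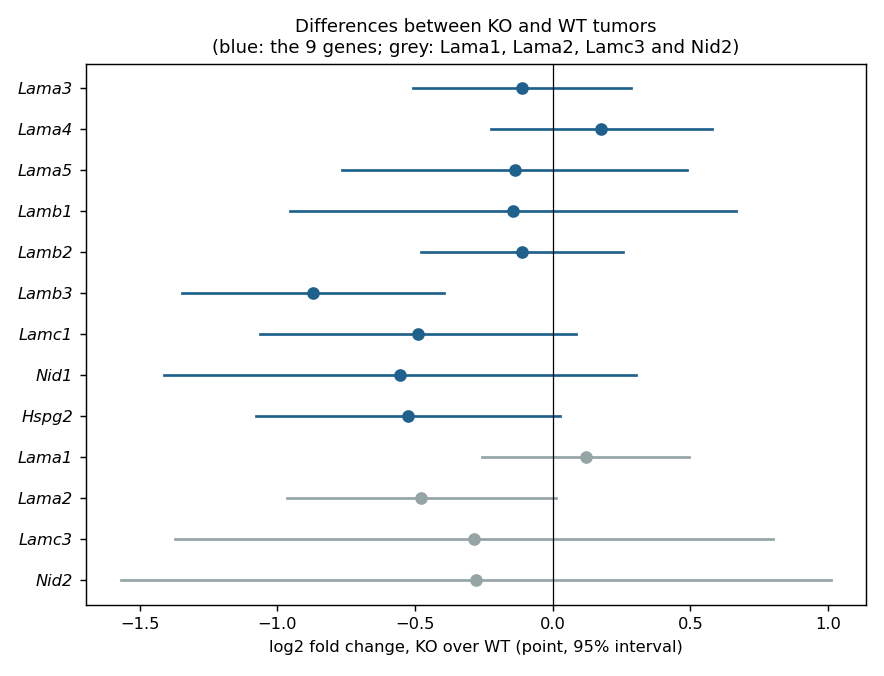
Log2 fold change of KO over WT (x axis) for the 9 genes in blue and for Lama1, Lama2, Lamc3 and Nid2 in grey; points are edgeR estimates and lines 95% intervals. Of the 9 genes, Lamb3 (-1.35 to -0.39) has the one interval that does not reach 0.

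Levels were set beside each other only after division by exon length, as CPM per kb of exon. Lama5 was highest in both groups, at 52.4 ± 17.2 CPM per kb in KO (SD, n = 5) and 57.7 ± 17.2 CPM per kb in WT (SD, n = 4). Lamb2 followed at 32.1 ± 6.17 CPM per kb in KO and 34.7 ± 4.48 CPM per kb in WT, and although its range overlapped that of Lama5, it was lower than Lama5 in 5 of 5 KO libraries and 3 of 4 WT libraries. In KO a gap separated Lamb2 from Lama4 (11.4 ± 2.19), Lamc1 (11.3 ± 1.14), Lamb3 (9.19 ± 1.74), Hspg2 (6.16 ± 2.27) and Lamb1 (5.92 ± 2.44), which overlapped from each to the next. Another gap led to Nid1 (2.04 ± 0.772) and Lama3 (1.79 ± 0.289), whose ranges overlapped. In WT, Lamb3 at 16.8 ± 5.52 CPM per kb took the third place, ahead of Lamc1 (15.9 ± 8.33), Lama4 (10.1 ± 2.28), Hspg2 (8.87 ± 2.15), Lamb1 (6.56 ± 4.15), Nid1 (3.01 ± 1.75) and Lama3 (1.93 ± 0.417). In WT only the step from Lamb2 to Lamb3 was free of overlap. These levels rest on all annotated exons of a gene, which a tumor need not use.

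The alpha and the beta chains, each as a share of the CPM per kb of their class, were dominated by 1 chain. Lama5 made up 57.2% to 81.7% of the alpha chains in KO and 67.1% to 85.1% in WT, and Lama4 11.99% to 30.1% in KO and 8.07% to 22.7% in WT. Lama3 made up 2.15% to 3.20% in KO and 1.99% to 3.12% in WT. The share of Lama4 was highest in KO 3 (30.1%) and WT 1 (22.7%), where that of Lama5 was lowest.

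Among the beta chains Lamb2 made up 55.5% to 71.5% in KO and 52.9% to 65.6% in WT, and Lamb1 7.52% to 26.6% in KO and 7.94% to 16.5% in WT. Lamb3 made up 17.7%, 18.2%, 17.9%, 20.3% and 22.8% in KO 1 to KO 5, against 30.7%, 26.5%, 24.7% and 32.3% in WT 1 to WT 4. The groups did not overlap in this share, which is built on the same Lamb3 counts and is no separate test. The Lamb3 level per kb was 13.2 and 12.3 times that of Lama3 in WT 1 and WT 4. It was 4.71 to 6.11 times that of Lama3 in the KO libraries and 5.29 and 6.13 times in WT 2 and WT 3. The ratio was thus highest in the libraries with high Wap, which also held the most Lamb3. Like the share, it is built on the same Lamb3 counts and is no separate test.

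**Figure D3:**
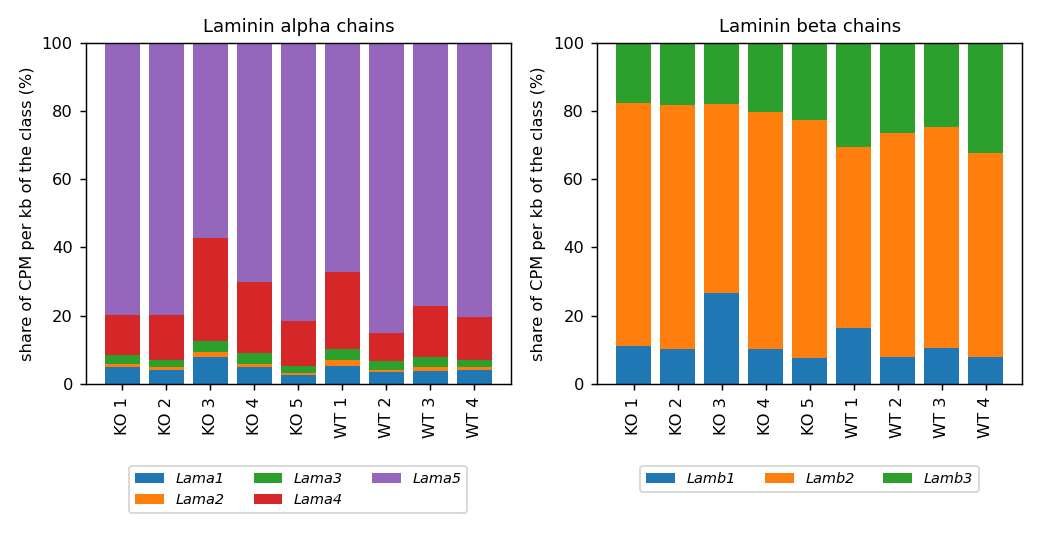
Share of each laminin chain (y axis, percent of CPM per kb of its class) in each library (x axis, KO left of WT), for the alpha and beta classes. Lama5 makes up 57.2% to 85.1% of the alpha chains, and the share of Lamb3 lies between 17.7% and 22.8% in KO and between 24.7% and 32.3% in WT.

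The 9 genes varied among the libraries in more than 1 way. Lamb1, Lamc1 and Nid1 were highest in WT 1, as were Lamb2, Lamb3 and Hspg2, whereas Lama5 and Lama3 were highest in WT 2 and Lama4 in KO 4. KO 3 had the second highest Lamb1 and the lowest Lama3, Lama5, Lamb2 and Lamb3, and KO 5 the lowest Lamb1, Lamc1, Nid1 and Hspg2. By the root mean square difference of log2 CPM over the 9 libraries, each gene centred on its own mean, Lama3 and Lamb2 were the most alike pair (0.25), followed by Lamb1 and Lamc1 (0.35) and by Lamc1 and Hspg2 (0.37). Lama5 was the least like Nid1 (1.01) and Lamb1 (1.00). The level of Lama5 per kb was 10.5 times that of Lama4 in WT 2 but 1.90 times in KO 3 and 2.95 times in WT 1.

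**Figure D4:**
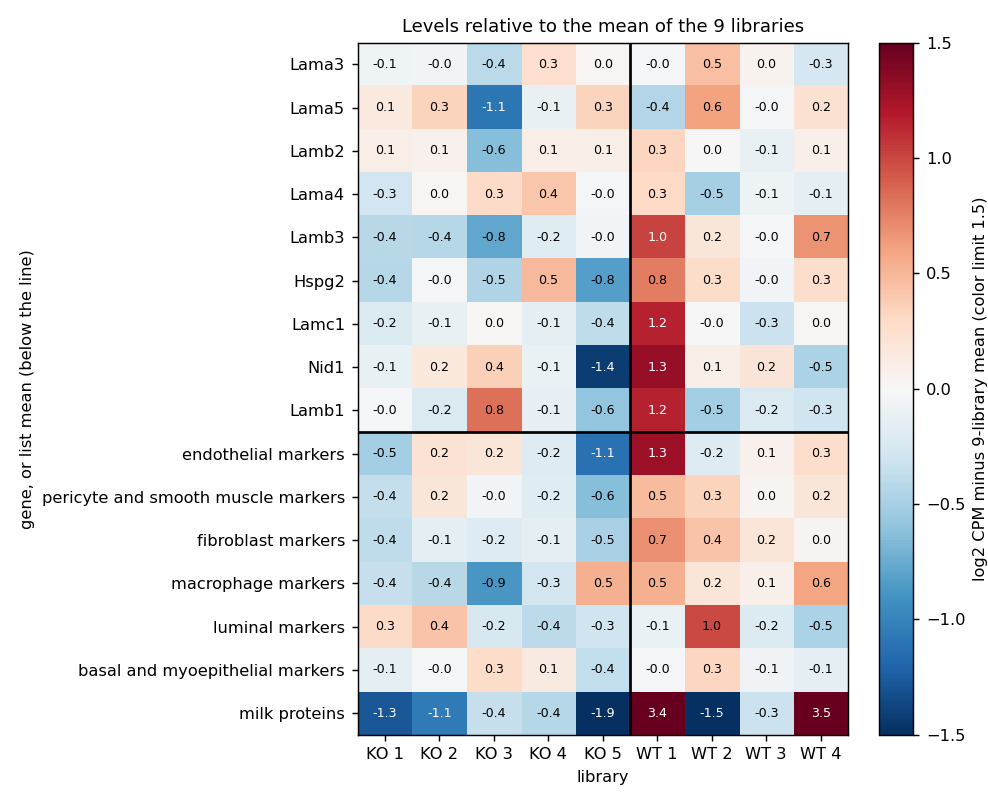
Log2 CPM minus the mean of the 9 libraries, for the 9 genes above the horizontal line and for the mean of marker lists below it, with KO libraries left of the vertical line. WT 1 is high for Lamb1, Lamc1 and Nid1 and for endothelial markers, WT 1 and WT 4 are high for Lamb3 and milk proteins, and KO 3 is low for Lama5 and Lamb2.

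The genes nearest to each of the 9 were found by the same measure among 10979 genes whose mean log2 CPM reached 3. Nearest to Lamb3 were Smoc1 (0.17), which encodes a calcium-binding basement membrane glycoprotein, and Acp5 (0.19), the tartrate-resistant acid phosphatase gene. Smoc1 stood at 50.6 to 94.0 CPM in KO, and at 198, 115, 85.1 and 135 CPM in WT 1 to WT 4. Nearest to Hspg2 were Col18a1 (0.16), a basement membrane collagen that carries heparan sulfate, and Crispld2 (0.16). Nid1 lay nearest to Cyp51 (0.32) and the VEGF receptor gene Kdr (0.33), farther than any other of the 9 genes lay from its nearest. Lamc1 lay nearest to Slc39a6 and Man1a2 (0.15 for both), Lamb1 to Lcn2 and Sgcb (0.17 for both), Lamb2 to Tmem63a (0.10) and D17H6S53E (0.11), Lama5 to Sgsm3 (0.16) and Slc9a3r2 (0.17), Lama4 to Cdca8 (0.11) and Epha4 (0.13), and Lama3 to Mrto4 (0.08) and Pgm2 (0.09). These are the smallest of many distances and carry no test.

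Marker genes of the cells that make these proteins were read beside them. The summed level of 11 endothelial markers was 37.6 to 108 CPM in KO and 85.9 to 195 CPM in WT, that of 8 fibroblast markers 199 to 414 CPM in KO and 533 to 737 CPM in WT, and that of 12 pericyte and smooth muscle markers 342 to 487 CPM in KO and 396 to 595 CPM in WT. Most of the fibroblast sum was Col1a1 and Col1a2, with mean CPM of 153 and 90.9 in KO and 319 and 198 in WT. No other fibroblast marker had a mean over 37.8 CPM in either group (Dcn in WT). The largest part of the pericyte and smooth muscle sum was Notch3, with means of 239 CPM in KO and 267 CPM in WT. For the 3 lists in turn the median log2 fold changes were -0.82, -0.60 and -0.41, with negative values for 11 of 11, 7 of 8 and 12 of 12 genes. Over all genes tested, 50% were negative. In edgeR none was called, while 3, 4 and 3 were under an unadjusted p of 0.05 and lower in KO, where 4.59% of all genes tested were. DESeq2 called Col1a1 and Col1a2, and called 0.259% of the genes it tested lower in KO. With 1 library left out the endothelial median ran from -1.02 to -0.20 (without WT 1). That of the fibroblast markers ran from -0.81 to -0.41, and that of the pericyte and smooth muscle markers from -0.56 to -0.41. Fewer cells of a type and less RNA per cell cannot be told apart in bulk tumors. The part of these cells in the levels of Lamc1, Nid1 and Hspg2 was not tested.

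Epithelial markers were read in the same way. The summed level of 9 basal and myoepithelial markers was 144 to 277 CPM in KO and 178 to 268 CPM in WT. Their median fold change was -0.17 (log2), with no gene at an unadjusted p under 0.05, and its sign turned without WT 2 (0.05). It was -0.06 without KO 5, -0.34 without KO 4 and -0.29 without WT 4. The 12 luminal markers summed to 4268 to 5945 CPM in KO and 4699 to 8607 CPM in WT, with a median of -0.43. With 1 library left out that median ran from -0.52 to -0.04 (without WT 2), and it was -0.28 without WT 1. Of these markers, 2 had an unadjusted p under 0.05 in edgeR and stood lower in KO, where 4.59% of all genes tested did. They were Elf5, a regulator of alveolar cells (-0.34 ± 0.15 SE, log2), and E-cadherin (Cdh1, -0.45 ± 0.19). The 10 macrophage markers summed to 254 to 645 CPM in KO and 489 to 790.1 CPM in WT, with a median of -0.62. In edgeR 2 of the 10 had an unadjusted p under 0.05, lower in KO, against the same 4.59% of all genes. DESeq2, which called 0.259% of all genes lower, called Cd14 among the macrophage markers. Adipocyte markers were hardly present, with 3 of 7 tested (not Adipoq, Lep, Cidec or Retn) and summed levels of 14.8 to 25.1 CPM in KO and 31.6 to 46.5 CPM in WT. That gap came from the lipase gene Lpl, which DESeq2 called, at 13.6 ± 4.94 CPM in KO and 31.5 ± 12.4 CPM in WT (SD). Fabp4 had 4.01 ± 1.11 CPM in KO and 4.10 ± 2.58 CPM in WT, Plin1 had 2.80 ± 2.39 CPM in KO and 2.69 ± 2.39 CPM in WT, and the median of the list was -0.05.

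Other genes of the same networks were read beside the 9. Of the related genes Lama1, Lama2, Lamc3 and Nid2, 3 had negative log2 fold changes. The value was -0.48 ± 0.22 (SE) for Lama2, the muscle and nerve alpha chain, and 0.12 ± 0.17 for Lama1, the embryonic alpha chain. Lamc3 had -0.29 ± 0.49, and Nid2, the second nidogen, -0.28 ± 0.59. By unadjusted p in edgeR, 0 of these 4 were under 0.05, and DESeq2 called none of them.

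Of 8 basement membrane collagens and agrin tested, 5 had negative log2 fold changes, where 50% of all genes tested did. The median was -0.27, and with 1 library left out it ran from -0.34 to -0.15 (without either KO 1 or KO 5). Col18a1 had -0.74 ± 0.21 (SE; unadjusted p = 0.00455 and adjusted p = 0.514 in edgeR), and the widespread type IV chains Col4a2 and Col4a1 had -0.62 ± 0.31 and -0.46 ± 0.35. Col15a1, found in vascular and muscle basement membranes, had -0.45 ± 0.24. The epithelial chains Col4a5 (0.01 ± 0.17) and Col4a6 (0.12 ± 0.18) and the heparan sulfate proteoglycan agrin (Agrn, 0.11 ± 0.15) had positive values smaller than their SE, and Col4a4 had -0.08 ± 0.34. edgeR, DESeq2 and limma-voom called none of the 8. In edgeR 1 had an unadjusted p under 0.05, lower in KO, where 4.59% of all genes tested did.

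Receptors for laminin all had negative values, whose median rested on WT 1. All 9 tested had negative log2 fold changes, where 50% of all genes tested did. Their median was -0.36, and with 1 library left out it ran from -0.49 to -0.01 (without WT 1). Itga7, the muscle laminin integrin, had -0.75 ± 0.37 (SE), syndecan 1 (Sdc1) -0.40 ± 0.20, dystroglycan (Dag1) -0.48 ± 0.29 and the tetraspanin Cd151 -0.32 ± 0.20. edgeR and DESeq2 called none, and none had an unadjusted p under 0.05 in edgeR. Of 6 hemidesmosome genes, which include Itga6, Itgb4 and Cd151 of the receptor list, 5 were negative, where 50% of all genes tested were. The median was -0.21, and with 1 library left out it ran from -0.29 to -0.08 (without WT 2). It was -0.09 without WT 1 and -0.13 without KO 3. Among them dystonin (Dst) had 0.25 ± 0.16, Itga6 -0.36 ± 0.25 and the transmembrane collagen Col17a1 -0.25 ± 0.23. edgeR and DESeq2 again called none, and none had an unadjusted p under 0.05 in edgeR.

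Proteins that associate with or cut the basement membrane had larger single values. Of 15 associated genes tested, 11 were negative (median log2 fold change -0.22), where 50% of all genes tested were. edgeR gave 5 of them an unadjusted p under 0.05, each lower in KO, where 4.59% of all genes did. With 1 library left out the median lay between -0.49 (without WT 3) and -0.10 (without WT 1), and leaving out KO 1, KO 2, KO 3 or WT 2 also enlarged it. The collagen-binding Sparc had -1.26 ± 0.34 (SE). Every KO library (28.7 to 66.5 CPM) lay below every WT library for Sparc, an order seen for 1.26% of all genes tested. Sparc stood at 250 CPM in WT 1 and at 77.4 to 100.5 CPM in the rest of WT. Smoc2 had -1.35 ± 0.40, Tinagl1 -0.63 ± 0.21 and Smoc1 -0.71 ± 0.24. edgeR and DESeq2 called none of the 15. Of 10 proteases that cut laminins or nidogens, 5 were tested, and 3 had an unadjusted p under 0.05 in edgeR, lower in KO, where 4.59% of all genes did. The gelatinase Mmp2 had -1.24 ± 0.31, the chain-processing Bmp1 -0.57 ± 0.20, cathepsin S (Ctss) -0.84 ± 0.31 and the membrane-bound Mmp14 -0.34 ± 0.23. edgeR called none of the 5, and DESeq2, which called 0.259% of all genes lower, called Mmp2.

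Enzymes that build and edit heparan sulfate, the chains carried by perlecan, had mostly small negative values. Of 16 tested, 14 had negative log2 fold changes, where 50% of all genes tested did. The median was -0.29, and with 1 library left out it ran from -0.37 to -0.12 (without WT 1). Xylt1, which starts the chains, had -0.91 ± 0.32 (SE), the sulfatase Sulf2 -0.46 ± 0.19, the chain-starting Extl3 -0.31 ± 0.14 and the sulfotransferase Hs6st1 -0.39 ± 0.18. edgeR and DESeq2 called none. By unadjusted p in edgeR, 3 fell under 0.05, each lower in KO, where 4.59% of all genes tested did. Ext1, which with Ext2 forms the chain polymerase, had -0.04 ± 0.14.

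**Figure D5:**
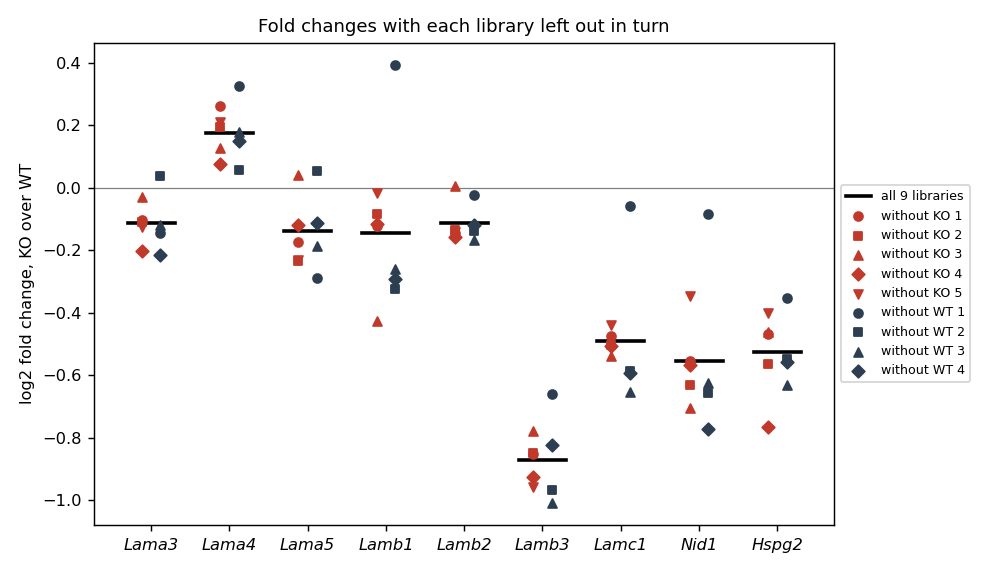
Log2 fold change of KO over WT (y axis) of each of the 9 genes with all libraries (black line) and with each library left out in turn (red for a KO library, dark blue for a WT library). Without WT 1 the values of Lamc1 and Nid1 are -0.06 and -0.08 and that of Lamb1 is 0.40, while Lamb3 stays between -1.01 and -0.66.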

How the data were processed

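Counts per gene were read from the authors' deposited table, which holds unnormalized counts for each library. The submitters' processing notes name STAR 2.5.4a, Trimmomatic 0.36, FastQC 0.11.5 and the build GRCm38. No source used here gives settings or says whether counting used strand. Entries that name no gene took 10.99% to 27.1% (unmapped), 5.50% to 9.53% (multimapped), 34.0% to 50.4% (no feature) and 0.971% to 1.23% (ambiguous) of a library's fragments and stayed out of library sizes and tests. Symbols, positions and exon lengths came from GENCODE's GRCm38 annotation, which matched 55141 of 55401 gene identifiers.

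KO was compared with WT in edgeR 4.0.16 (R 4.3.3; glmQLFit and glmQLFTest, TMM, filterByExpr, genotype only, two-sided, adjusted over 14665 genes). SE is the fold change over the square root of F, and 95% intervals use 11.2 degrees of freedom. CPM uses TMM-scaled totals, and log2 CPM a prior count of 2. The fit was tested on simulated data with 200 changed genes. At a 2-fold change edgeR recovered 92 of the 200, with 8 false calls. At a 4-fold change it recovered 182, with 15 false calls. On the same data DESeq2 recovered 120 with 29 false calls at 2-fold, and 184 with 50 false calls at 4-fold. For limma-voom these were 82 with 5 and 180 with 18. Genes called by DESeq2 alone are to be read with its larger number of false calls. DESeq2 1.42.0 and limma-voom (limma 3.58.1), other scalings and filters, label number or age as terms, a correction for exon length and GC content, and left-out libraries were alternatives. The genes and lists were chosen with earlier results of these data known. Named were all 9 genes, Lama1, Lama2, Lamc3 and Nid2, up to 4 genes of smallest unadjusted p per network list, and the nearest 2 genes to each of the 9. Ext1, Col4a4, Col4a5, Col4a6, Agrn and the marker genes named, Wap among them, were chosen after their values were seen. An item of the lists is not reported here.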

Additional observations from a re-analysis of the deposited data

Results flagged for a closer look

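For each of the 9 genes the highest and lowest library of each group were compared with the rest of the group by Dixon's test on CPM, 18 groups in all, of which chance flags about 1 in 20. Lamb1 in KO was flagged for KO 3, at 100 CPM, and Lamb1 in WT for WT 1, at 127 CPM. Lamb2 in KO was flagged for KO 3, at 128 CPM, below the others. Lamc1 in WT was flagged for WT 1, at 234 CPM. The log2 fold changes without both WT 1 and KO 3, an alternative chosen after seeing the data, were 0.11 for Lamb1, 0.10 for Lamb2 and -0.11 for Lamc1, and -0.57 for Lamb3, whose libraries were not flagged.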

How the results depend on the processing

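Of 189 fold changes of the 9 genes under 21 alternatives each, 174 kept their sign and their side of the threshold, none became significant, and 15 changed sign, for genes whose main value was smaller than its SE. The signs of Lamb3, Lamc1, Nid1, Hspg2 and Lama4 held under every alternative. The cause of the changes of sign was not tested. With age as a covariate Lama3 stood at 0.12 and Lama5 at 0.17 (log2). WT 2, the highest library for both genes, was 132 days, and every other library lay between 120 and 125 days. The age term is thus not separate from leaving out WT 2. With limma-voom and sample weights Lamb1 stood at 0.058 and Lamb2 at 0.040. Without WT 1 and WT 4, Lamb1 stood at 0.41 and Lamb2 at 0.017, and without WT 1 and KO 3 at 0.11 and 0.10. With 1 library left out, the fold changes ran from -0.21 to 0.040 for Lama3, -0.29 to 0.055 for Lama5, -0.43 to 0.40 for Lamb1, -0.17 to 0.0076 for Lamb2, -1.01 to -0.66 for Lamb3, -0.65 to -0.06 for Lamc1, -0.77 to -0.08 for Nid1, -0.76 to -0.35 for Hspg2 and 0.06 to 0.33 for Lama4. The median of the 9 genes, -0.15 in the main test, was -0.44 with age as a covariate and -0.08 with limma-voom, and ran from -0.43 (without KO 3) to -0.08 (without WT 1) with 1 library left out.

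The labels do not say that a number marks a pair. Deviations from the group means correlated at -0.02, 0.38, 0.11 and 0.38 for numbers 1 to 4, so 3 of 4 were over 0.1, and KO 3 correlated best with WT 1 (0.57). The numbers were not taken as pairs. With the replicate block Lamb1 stood at 0.091, and at 0.082 with the exon length and GC trend also removed, while Lamb3 stood at -0.92 (adjusted p = 0.163), Nid1 at -0.22 and the endothelial median at -0.45. The block gave 10 calls over all genes. All genes called numbered 13 in the main test, 68 with DESeq2, 29 with no filter on low counts, 6 at a mean count of at least 50, 6 with the replicate block and the trend removed, and 6 to 13 with 1 library left out. Those of the 9 with an unadjusted p under 0.05 numbered 1, but 3 with no filter, 2 with age as a covariate, 2 with the exon length and GC trend removed, and 1 to 3 with 1 library left out; the additions were Hspg2 and Lamc1. No scaling moved the median of all genes by more than 0.03. Nid1 and Lama3, with 399 and 407 counts in WT, rest on the fewest counts.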
